A study of Rattus norvegicus with 6 samples.

Results

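The core autophagy machinery is the set of proteins that starts, builds, closes and delivers the autophagosome. Its genes were followed by RNA-seq in rat nucleus pulposus cells (NPCs), the cells of the inner core of the intervertebral disc. The 39 genes were taken by symbol from a list ordered by step, and all 39 were found among the 20264 rows of the combined count table and among the 11426 genes with enough counts to be tested. The NPCs were primary cells from the tail of wild-type male Sprague-Dawley rats. All 6 libraries came from cells exposed to tert-butyl hydroperoxide (TBHP), an oxidant that brings on oxidative stress and senescence. TBHP was given alone in 3 libraries (TBHP libraries 1, 2 and 3) and together with recombinant rat FGF21 in the other 3 (FGF21 libraries 1, 2 and 3). Cells without TBHP were not analysed here, so each difference is that of FGF21 on top of TBHP. The treatment label names FGF21 for the first of the FGF21 libraries, FGF22 for the second and FGF23 for the third, while the protocol and the paper give FGF21 for the whole group, and this was followed. The replicates are called biological, but the labels do not say whether they came from separate animals or cultures, so the p-values measure the spread between these libraries.

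Autophagy encloses cytoplasm in a double membrane and delivers it to the lysosome. A kinase complex around ULK1 starts the process, a lipid kinase complex around Beclin 1 marks the membrane, lipid transfer proteins let it grow, and ubiquitin-like conjugation attaches LC3 and GABARAP proteins to it, after which SNARE proteins and tethers fuse the closed autophagosome with the lysosome. In disc cells, which live with little oxygen and few nutrients, autophagy is known as a route by which damaged mitochondria and proteins are removed. Much of the control of these proteins lies in phosphorylation, lipid attachment and turnover, which read counts do not measure.

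The libraries held 18277732 to 22426190 counts, and the 39 genes took 0.248% to 0.265% of them. FGF21 library 2 stood apart from its group, with a mean Spearman's rho across genes of 0.996 with the TBHP libraries and 0.990 with the other FGF21 libraries. By mean rho, TBHP library 3 was also as close to the other group. It had 0.993 with the other TBHP libraries and 0.994 with the FGF21 libraries. Its chi-square per gene was 15.3, 8.52 and 38.3 against FGF21 libraries 1, 2 and 3. Against TBHP libraries 1 and 2 it was 21.3 and 23.3. Among markers, the notochordal genes Tbxt, Noto and Shh were at 0 in every library, and the sum of the 8 notochordal genes in the table was 7.15 to 8.84 CPM (counts per 10 to the power 6 counts of the library, TMM-scaled) with TBHP alone and 5.02 to 6.46 CPM with FGF21 added. The sum of the 5 markers of chondrocyte-like NPCs, mostly the proteoglycan gene Acan, was 2611 to 3049.7 CPM with TBHP alone and 2968 to 4465 CPM with FGF21 added, while Col2a1 had 68 counts in all. The 3 notochordal genes tested were all lower with FGF21, with 0 at an unadjusted p under 0.05. Within the chondrocyte-like list and the annulus fibrosus and fibroblast list, genes differed in direction. Unadjusted p was under 0.05 for Acan (log2 fold change 0.40), Sox9 (0.56) and Pdgfra (0.39), which were higher with FGF21. It was also under 0.05 for Scx (-0.39), which was lower. Each of these genes had an adjusted p of 0.553 by edgeR. They were 2 of the 5 genes of the first list and 2 of the 6 of the second, against 8.92% of all genes. For each of them the groups overlapped, and FGF21 library 2 lay within the range of the TBHP libraries. The sum of the 6 annulus fibrosus and fibroblast markers, which include Pdgfra and Scx and of which 3 were higher and 3 lower, was mostly Col1a1, at 38704 to 42949 CPM and 28294 to 40544 CPM. Of the 6 macrophage markers Ptprc and Adgre1 were at 0, and the sum, mostly Cd14, was 32.2 to 37.9 CPM against 26.8 to 33.0 CPM. Of the 2 tested, Cd14 was lower and Cd68 higher with FGF21, with 0 at an unadjusted p under 0.05. The 3 endothelial markers in the table were at 0, and the 3 red blood cell markers reached 0.0469 CPM at most. The part of these lists in the values below was not tested. In such bulk samples, fewer cells of a type and less RNA per cell cannot be told apart.

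No transcript of the core autophagy machinery passed the test between cells with and without FGF21, and the estimated differences were small. In the quasi-likelihood test of edgeR, with p-values adjusted by Benjamini-Hochberg over all genes, 0 of the 39 genes had an adjusted p under 0.05, and the lowest adjusted p was 0.553. Over all genes tested, 0.00875% passed this threshold, which is the single gene Sirt1. The combined table gives Sirt1 32, 38 and 35 counts in the TBHP libraries, while the row of the per-sample files that has its FGF21 counts holds 92, 138 and 125, and with the per-sample files edgeR called 0 genes (1082 at an unadjusted p under 0.05).

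Before adjustment, 2 of the 39 genes had a p under 0.05, Atg10 and Vamp8, both lower with FGF21. They make up 5.13% of the machinery, against 8.92% of all genes in either direction, 4.29% for lower genes and 4.63% for higher genes. A log2 fold change beyond 1 in either direction, joined to an unadjusted p under 0.05, was seen for 0 of the 39 genes and for 0.534% of all genes.

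The differences lay close to 0 in both directions. The median log2 fold change of the 39 genes was 0.03, against -0.0052 for all genes. With FGF21, 23 genes were higher (59.0%, against 48.9% of all genes) and 16 lower. The direction counts of the steps below stand beside the same 48.9%. The values ran from -0.40 for Atg10 to 0.27 for Ulk1. For 36 of the 39 genes the value lay within 0.25 of 0, against 78.0% of all genes, which include genes with fewer counts. The median absolute log2 fold change was 0.092, against 0.13 for all genes. It was 0.11 for the genes with at least as many counts as the lowest of the 39. The 95% intervals of all 39 genes lay between -1 and 1, against 91.1% of all genes tested and 98.5% of the genes with at least as many counts as the lowest of the 39. The lowest bound was -0.74, for Atg10, and the highest 0.55, for Ulk1. The genes were well covered, with 707 to 40786 counts in the 6 libraries together. For 37 of the genes the interval included 0.

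**Figure D1:**
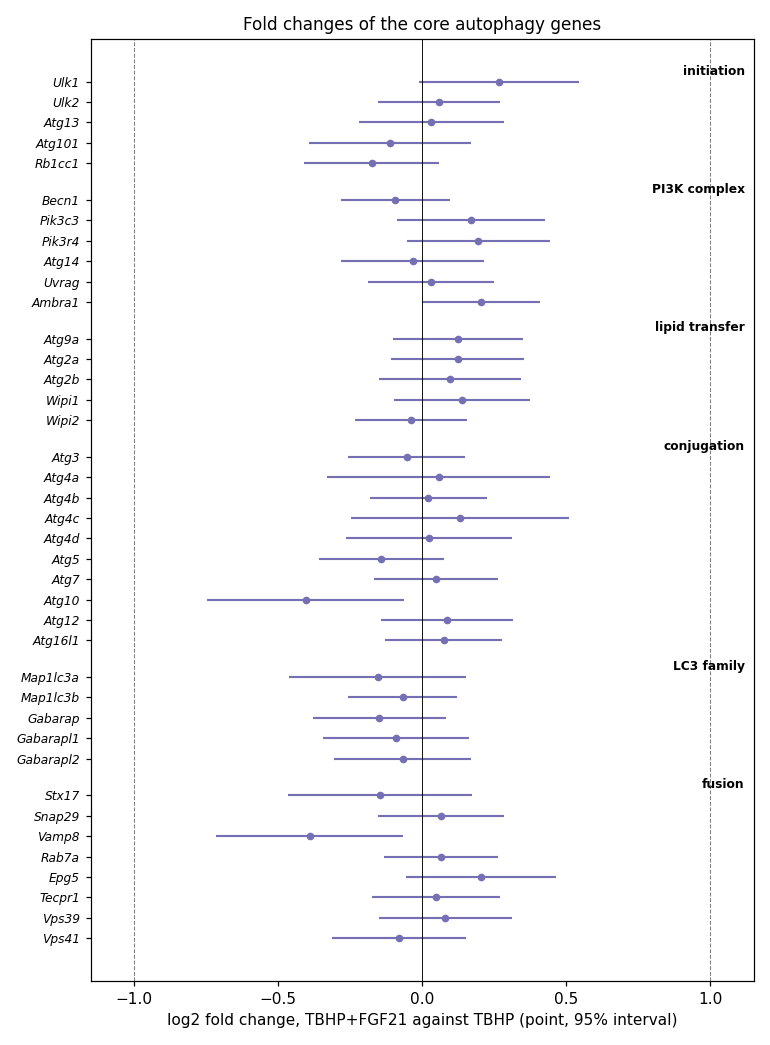
Log2 fold change of each of the 39 core autophagy genes (TBHP+FGF21 against TBHP, edgeR), grouped by step, with points for the estimate, bars for its 95% interval and dashed lines at -1 and 1. All 39 intervals lie between the dashed lines, and those of Atg10 and Vamp8 alone leave out 0.

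The initiation step holds the protein kinases ULK1 and ULK2 and their partners ATG13, ATG101 and FIP200 (encoded by Rb1cc1). Ulk1 had the lowest p of the step. TBHP libraries 1, 2 and 3 had Ulk1 at 45.0, 38.3 and 45.7 CPM, and FGF21 libraries 1, 2 and 3 had it at 54.5, 42.1 and 58.6 CPM. FGF21 libraries 1 and 3 were above every TBHP library, and FGF21 library 2 lay among them. Its log2 fold change was 0.27 (standard error 0.13), with an adjusted p of 0.553 by edgeR.

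Dropping FGF21 library 2 raised the Ulk1 value to 0.41 (standard error 0.11) and gave an adjusted p of 0.0326 by edgeR. This was the only call among the 39 genes in the 6 fits that each left out 1 library. In that fit edgeR called 867 genes, or 7.5% of all genes, so a call was more common there than with all libraries. When another library was dropped instead, the Ulk1 value lay between 0.18 and 0.32 and its adjusted p was 0.321 or more by edgeR.

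Of the remaining genes of the step, Ulk2 was at 41.8 ± 2.71 CPM with TBHP alone and 43.6 ± 2.91 CPM with FGF21 added (SD, n = 3 each). Atg13, which encodes the regulatory subunit that mTORC1 phosphorylates, was at 54.7 ± 4.23 CPM and 55.9 ± 8.12 CPM. Rb1cc1, which encodes the scaffold of the complex, was at 47.8 ± 2.41 CPM and 42.4 ± 5.21 CPM. Subunits of this complex thus lay on both sides of 0, with log2 fold changes of 0.06 for Ulk2, 0.03 for Atg13, -0.11 for Atg101, whose protein stabilises ATG13, and -0.17 for Rb1cc1. The adjusted p of these 4 genes lay between 0.590 and 0.931 by edgeR.

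The lipid kinase complex makes phosphatidylinositol 3-phosphate on the growing membrane. Pik3c3 encodes its catalytic subunit, Pik3r4 its regulatory subunit, Becn1 Beclin 1, Atg14 and Uvrag alternative partners of Beclin 1, and Ambra1 an activator that links Beclin 1 and ULK1. Ambra1 stood at 50.8, 44.3 and 49.4 CPM in TBHP libraries 1, 2 and 3 and at 57.7, 53.3 and 55.4 CPM in FGF21 libraries 1, 2 and 3. All FGF21 libraries were above all TBHP libraries. The difference was 0.20 on the log2 scale (standard error 0.09, unadjusted p 0.0502, adjusted p 0.553 by edgeR), and it was 0.14 to 0.25 when each library was dropped in turn.

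Becn1 differed the other way. Its levels were 109.2, 109.8 and 113.1 CPM in the TBHP libraries and 103.6, 109.0 and 98.7 CPM in the FGF21 libraries. The groups did not overlap, but FGF21 library 2 lay just below the lowest TBHP library. The difference was -0.09 on the log2 scale (standard error 0.09, adjusted p 0.707 by edgeR). Ambra1, Becn1 and Atg10 were the 3 of the 39 genes whose groups did not overlap, 1 higher and 2 lower, which is 7.69% of the machinery against 9.9% of all genes (4.9% higher and 5% lower).

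Pik3r4 was at 26.1 ± 2.40 CPM with TBHP alone and 29.9 ± 2.87 CPM with FGF21 added (SD, n = 3 each). Its log2 fold change was 0.19, that of Pik3c3 0.17, that of Atg14 -0.03 and that of Uvrag 0.03. The adjusted p of these 4 genes lay between 0.579 and 0.928 by edgeR.

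**Figure D2:**
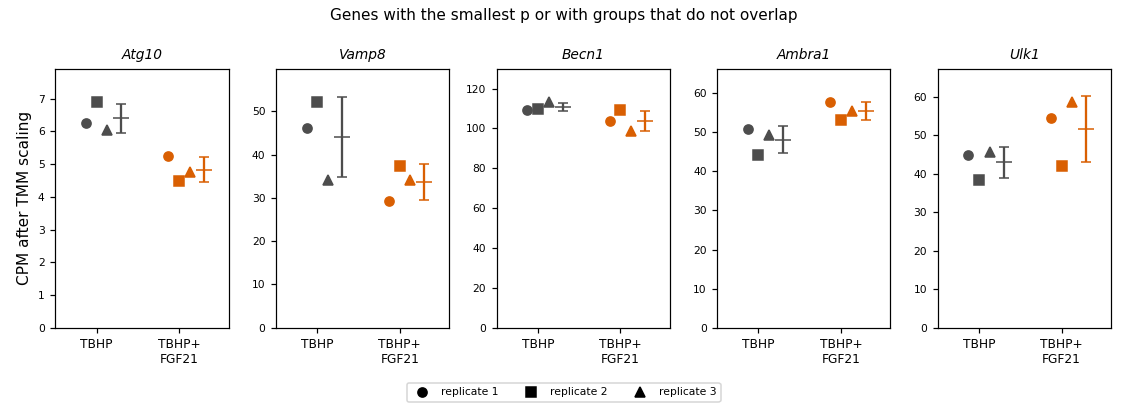
Level of Atg10, Vamp8, Becn1, Ambra1 and Ulk1 in each library (CPM after TMM scaling, axes from 0), with symbols for replicates 1 to 3 and bars for the mean ± SD of 3 libraries. The groups do not overlap for Atg10, Becn1 and Ambra1, and for Ulk1 replicate 2 of TBHP+FGF21 lies among the TBHP libraries.

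The lipid transfer step holds ATG9A, a membrane protein that scrambles lipids, ATG2A and ATG2B, which carry lipids into the growing membrane, and WIPI1 and WIPI2, which bind phosphatidylinositol 3-phosphate. Of these 5 genes 4 were higher with FGF21, against 48.9% of all genes, and 0 had an unadjusted p under 0.05. Wipi1, with the lowest p of the step, was at 70.9, 59.2 and 74.8 CPM in the TBHP libraries and at 76.9, 68.7 and 79.7 CPM in the FGF21 libraries. In each group the second library was the lowest, and the groups overlapped. The Wipi1 difference was 0.14 on the log2 scale (standard error 0.11, adjusted p 0.661 by edgeR).

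Atg9a was at 122 ± 7.31 CPM with TBHP alone and 133 ± 15.2 CPM with FGF21 added (SD, n = 3 each). Its log2 fold change was 0.12, or 0.22 when FGF21 library 2 was dropped. Atg2a and Atg2b had 0.12 and 0.10, and Wipi2 had -0.04. The median of the step was 0.12, against 0.10 for the lipid kinase complex. It was 0.21 when FGF21 library 2 or TBHP library 3 was dropped, and 0.06 when TBHP library 2 was. The order of these 2 steps changed with the libraries, with 0.08 for lipid transfer and 0.12 for the lipid kinase complex when FGF21 library 1 was dropped, and 0.06 and 0.07 when TBHP library 2 was.

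The conjugation step attaches ATG12 to ATG5 and LC3 proteins to a membrane lipid. ATG7 is the activating enzyme of both reactions, ATG10 and ATG3 are the transfer enzymes for ATG12 and LC3, ATG16L1 brings the ATG12-ATG5 conjugate to the membrane, and the proteases ATG4A to ATG4D trim LC3 proteins and release them again. Atg10 had the largest fold change and the fewest counts of the 39 genes. Its counts were 112, 152 and 129 in the TBHP libraries and 111, 94 and 109 in the FGF21 libraries. After scaling, the levels were 6.26, 6.89 and 6.05 CPM with TBHP alone and 5.26, 4.50 and 4.75 CPM with FGF21 added, so all FGF21 libraries were below all TBHP libraries. The difference was -0.40 on the log2 scale (standard error 0.16, unadjusted p 0.0239, adjusted p 0.553 by edgeR), a level of 0.756 times that with TBHP alone. It was -0.46 to -0.35 when each library was dropped in turn, with adjusted p of 0.254 or more by edgeR.

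Atg3 was at 50.6 ± 3.79 CPM with TBHP alone and 48.7 ± 1.51 CPM with FGF21 added (SD, n = 3 each). Atg5 was at 30.9 ± 1.76 CPM and 28.1 ± 1.39 CPM, a log2 fold change of -0.14, while that of Atg12, whose protein is joined to ATG5, was 0.09. Atg7 was at 31.3 ± 1.07 CPM and 32.4 ± 2.24 CPM, and Atg16l1 at 39.5 ± 2.54 CPM and 41.6 ± 0.737 CPM. The protease genes Atg4a, Atg4b, Atg4c and Atg4d had log2 fold changes of 0.06, 0.02, 0.13 and 0.02. TBHP library 1 was the lowest for Atg4a, at 6.59 CPM, and for Atg4c, at 4.86 CPM, and without it their fold changes were -0.10 and -0.0033. Of the 10 genes of the step 7 were higher and 3 lower, and Atg10 was the 1 gene with an unadjusted p under 0.05.

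The LC3 family holds the ubiquitin-like proteins that are attached to the membrane and bind cargo receptors, encoded here by Map1lc3a, Map1lc3b, Gabarap, Gabarapl1 and Gabarapl2. All 5 genes had negative log2 fold changes, from -0.15 to -0.07, and 0 had an unadjusted p under 0.05. Map1lc3a was at 214, 202 and 144.9 CPM in the TBHP libraries and at 150.1, 189 and 165 CPM in the FGF21 libraries. Gabarap was at 321, 314 and 252 CPM in the TBHP libraries and at 262, 269 and 269.7 CPM in the FGF21 libraries. In both genes TBHP libraries 1 and 2 were above every other library, and TBHP library 3 was the lowest of all.

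Gabarapl1 followed with 153, 139 and 110.5 CPM in the TBHP libraries and 128, 129.7 and 120.0 CPM in the FGF21 libraries. Gabarapl2 had 82.1, 87.6 and 66.2 CPM against 76.8, 74.9 and 73.5 CPM. For both, TBHP library 3 was again the lowest of all. Map1lc3b had 164, 165 and 153 CPM in the TBHP libraries and 159, 148 and 153 CPM in the FGF21 libraries, with FGF21 library 2 the lowest. In each of the 5 genes TBHP library 3 was below TBHP libraries 1 and 2, which held for 14 of the 39 genes and 36.8% of all genes. In each, all 3 FGF21 libraries were also below TBHP libraries 1 and 2, which held for 9 of the 39 genes and 18.4% of all genes. Both held for 8 of the 39 genes, these 5 included, and for 15.7% of all genes. The pattern was chosen after the values were seen and was not tested.

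The size of the difference in this family moved with single TBHP libraries. Its median log2 fold change was -0.09 with all libraries, -0.21 when TBHP library 3 was dropped and -0.04 when TBHP library 1 was. Gabarapl1 turned to 0.02 without TBHP library 1, and Gabarapl2 turned to 0.02 without TBHP library 2. Gabarap had the lowest p of the family (log2 fold change -0.15, standard error 0.11, adjusted p 0.634 by edgeR). The SD of Gabarap was 37.9 CPM among the TBHP libraries and 4.37 CPM among the FGF21 libraries, and that of Map1lc3a was 37.1 CPM and 19.8 CPM.

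**Figure D3:**
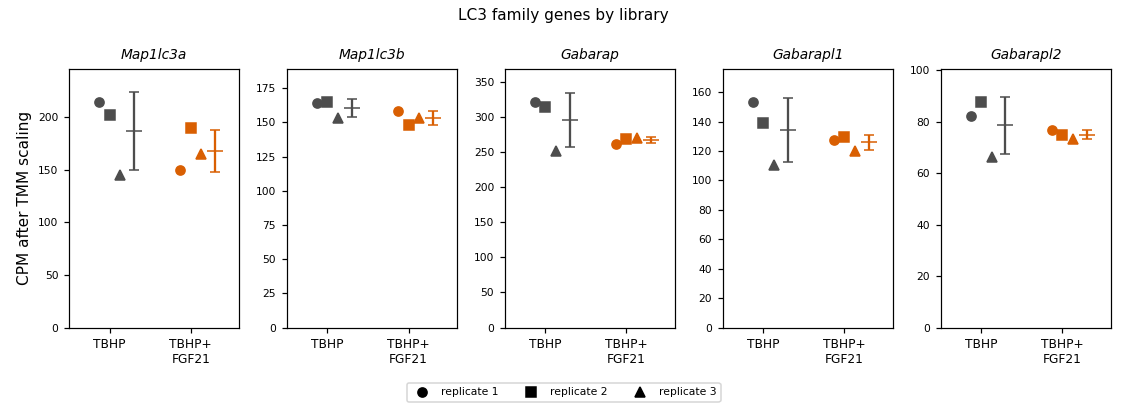
Level of the 5 LC3 family genes in each library (CPM after TMM scaling, axes from 0), with symbols for replicates 1 to 3 and bars for the mean ± SD of 3 libraries. In each gene TBHP replicate 3 lies below TBHP replicates 1 and 2, and so do all 3 TBHP+FGF21 libraries.

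The fusion step joins the autophagosome to the lysosome. STX17, SNAP29 and VAMP8 are the SNARE proteins that drive the fusion, RAB7A is the small GTPase of late endosomes, EPG5 and TECPR1 are tethering factors, and VPS39 and VPS41 are subunits of the HOPS tethering complex. Vamp8 was at 46.1, 52.1 and 34.1 CPM in the TBHP libraries and at 29.3, 37.4 and 34.2 CPM in the FGF21 libraries. It was highest in TBHP libraries 1 and 2, and TBHP library 3 lay below FGF21 libraries 2 and 3, so the groups overlapped. The difference was -0.39 on the log2 scale (standard error 0.15, unadjusted p 0.0222, adjusted p 0.553 by edgeR). It was -0.25 when TBHP library 2 was dropped and -0.54 when TBHP library 3 was. Vamp8 varied most of the 39 genes, with its highest library 77.6% above its lowest.

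Stx17 was at 8.09 ± 0.181 CPM with TBHP alone and 7.31 ± 0.891 CPM with FGF21 added (SD, n = 3 each), and Snap29 at 27.3 ± 1.90 CPM and 28.5 ± 0.244 CPM. The log2 fold change of Stx17 was -0.15 and that of Snap29 0.06. Epg5 was at 21.0 ± 2.22 CPM and 24.2 ± 2.08 CPM, with a log2 fold change of 0.20 and an adjusted p of 0.579 by edgeR. Rab7a had a log2 fold change of 0.07, Tecpr1 of 0.05, Vps39 of 0.08 and Vps41 of -0.08. Of the 8 genes of the step 5 were higher and 3 lower, and Vamp8 was the 1 gene with an unadjusted p under 0.05.

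**Figure D4:**
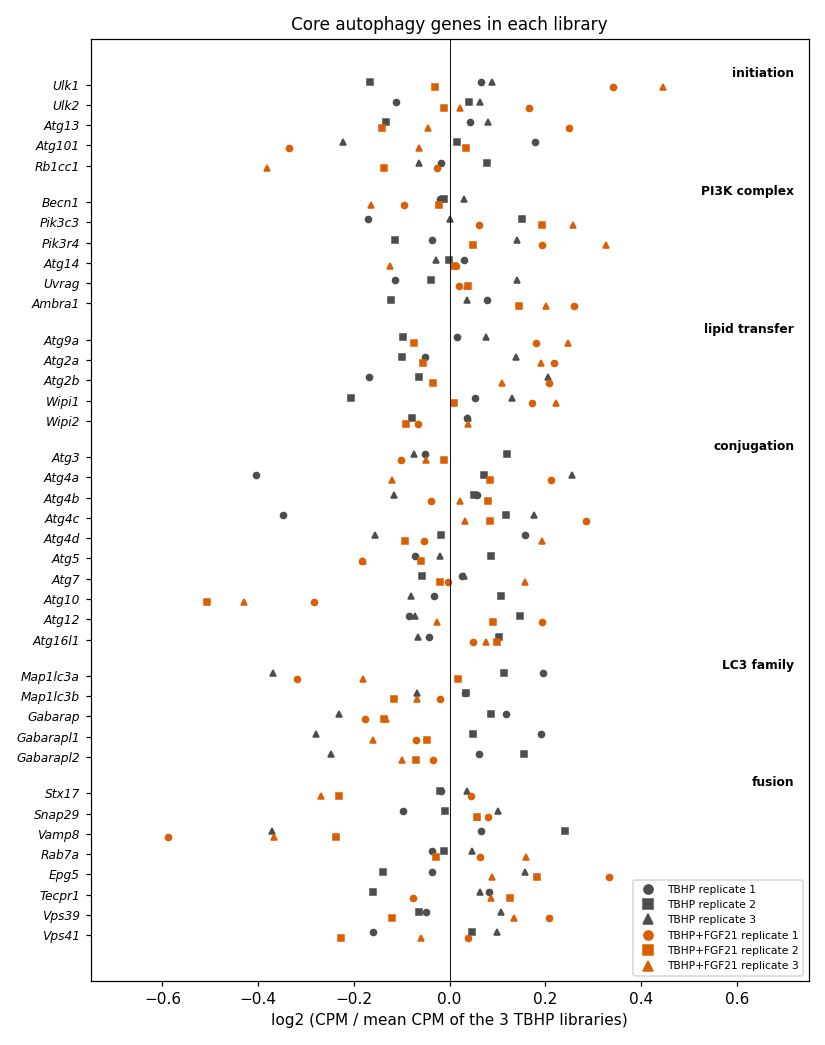
Level of each of the 39 genes in each library, as log2 of its CPM over the mean CPM of the 3 TBHP libraries, grouped by step, with grey symbols for TBHP and orange symbols for TBHP+FGF21. The symbols of the groups overlap in 36 rows, and they are apart for Becn1, Ambra1 and Atg10.

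Over the libraries, 34 of the 39 genes had a highest level under 1.5 times their lowest, and the other genes were Ulk1, Atg4a, Atg4c, Atg10 and Vamp8. The steadiest was Wipi2, with its highest library 9.51% above its lowest. FGF21 library 2 lay within the range of the TBHP libraries for 25 genes, FGF21 library 1 for 18 and FGF21 library 3 for 21. These counts were not taken over all genes, so they do not tell whether the 39 genes were steadier than others.

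How many genes had an unadjusted p under 0.05 depended on the libraries used, and on the method as given below. When TBHP library 3 was dropped there were 8, or 20.5% of the machinery against 15.3% of all genes. These were Ulk1, Pik3r4, Ambra1 and Epg5, which were higher with FGF21, and Atg10, Map1lc3a, Gabarap and Vamp8, which were lower. In that fit 0 genes of the whole table had an adjusted p under 0.05 by edgeR (1771 at an unadjusted p under 0.05). When FGF21 library 2 was dropped there were 5, or 12.8% of the machinery against 23.6% of all genes. Of these Ulk1, Pik3r4, Ambra1 and Atg9a were higher, 10.3% against 11.6% of all genes, and Vamp8 was lower, 2.56% against 12% of all genes. Dropping TBHP library 1 gave 2 genes, against 4.41% of all genes, and dropping TBHP library 2 gave 0, against 2.92%. Dropping FGF21 library 1 or 3 gave 1 gene each, against 4.15% and 2.96% of all genes.

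**Figure D5:**
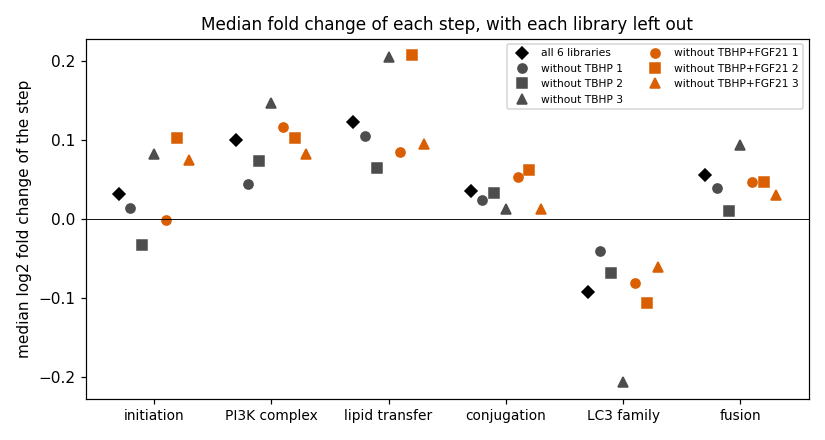
Median log2 fold change of each step (TBHP+FGF21 against TBHP, edgeR) with all 6 libraries (diamonds) and with each library left out (grey for TBHP, orange for TBHP+FGF21 libraries). The LC3 family moves from -0.09 to -0.21 without TBHP replicate 3, and the lipid transfer step from 0.12 to 0.21 without that library or without TBHP+FGF21 replicate 2.

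The genes around the core were read from 3 further lists. Of 28 upstream regulators 24 could be tested, with 15 higher and 9 lower and a median log2 fold change of 0.09. An unadjusted p under 0.05 was seen for 2 of the 24, against 8.92% of all genes. They were Sesn3, a stress-induced inhibitor of mTORC1 signalling, at 0.29 (standard error 0.13), and Mtor, the kinase that restrains ULK1, at 0.21 (standard error 0.09). Both had an adjusted p of 0.553 by edgeR. Of 23 accessory genes, all tested, 14 were higher and 9 lower, with a median of 0.06 and 0 at an unadjusted p under 0.05. Their lowest p was that of Rab33b, a small GTPase that binds ATG16L1, at -0.30 (standard error 0.14). Of 14 cargo receptors 10 could be tested, 5 higher and 5 lower, with a median of 0.0028 and 0 at an unadjusted p under 0.05. Their lowest p was that of Wdfy3, which encodes an adaptor for protein aggregates, at 0.15 (standard error 0.10).

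The promoters were searched for motifs of transcription factors known to control autophagy genes. RefSeq's promoter table (build GRCr8) runs from 250 bases before to 50 after the start site and holds 35 of the 39 genes. For some genes, among them Atg7, Vamp8 and Map1lc3b, the window lies inside the gene and not at its outer 5′ end. TFEB and TFE3 bind the CLEAR motif, searched here as the E-box core CACGTG with GT before it and AC after it, which reads the same on both strands. The E-box core was in 5 of the 35 promoters (14.3%) and in 6.65% of all 27457 promoters. The CLEAR motif, which contains it, was in 2 of the 35 (5.71%) and in 0.277% of all. The FOXO motif GTAAACA, searched on both strands, was in 0 of the 35 and in 3.76% of all. The median GC content was 60.7% for the 35 promoters and 52.3% for all. A match describes letters in these windows and not binding.

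The windows of 30 bases around each E-box core are given 5′ to 3′ on the strand of the gene, with the core in capitals, because the bases beside it tell which genes hold the CLEAR motif. The windows are chr11:97113328-97113357 (minus strand) for Snap29, chr18:73679098-73679127 (plus strand) for Epg5, chr11:69159302-69159331 and chr11:69159279-69159308 (minus strand) for Atg3, chr20:49380804-49380833 (plus strand) for Atg5 and chr15:23306792-23306821 (minus strand) for Atg14. The core begins 150 bases before the start site in Snap29, 57 before it in Epg5, 39 and 16 before it in Atg3, 19 before it in Atg5, and at base 7 after it in Atg14.
Snap29: cggcttcccggtCACGTGaccgccgtgtct
Epg5: tggagtgtttgtCACGTGacattcaggagg
Atg3, first window: gcctacttctgtCACGTGtcccgggagatt
Atg3, second window: ggagattcgagtCACGTGaggcctaggagg
Atg5: cggggcgctggcCACGTGggcgggtgacgt
Atg14: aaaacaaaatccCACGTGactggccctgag

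Snap29 and Epg5, both of the fusion step, hold the CLEAR motif, and their log2 fold changes were 0.06 and 0.20. Atg3, Atg5 and Atg14 hold the core alone, with -0.05, -0.14 and -0.03. None of these 5 genes had an unadjusted p under 0.05. Of the genes of these factor families in the list of upstream regulators, Tfeb, Tfe3 and Mitf had log2 fold changes of 0.11, 0.18 and -0.03, and Foxo1 and Foxo3 had -0.02 and 0.14. Their adjusted p lay between 0.557 and 0.964 by edgeR. Tfe3 was higher in all FGF21 libraries than in all TBHP libraries, and the other genes of these families overlapped. Of the 24 upstream regulators tested, 2 were higher without overlap and 1 was lower, against 4.9% and 5% of all genes.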

How the data were processed

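The authors deposited raw counts per Ensembl identifier for each of 6 libraries (STAR's columns, unstranded and for either strand) and a combined table by gene symbol. The combined table, as deposited, was handled as estimated counts because 22 rows hold values that are not whole, which were rounded up. The submitters' processing notes name STAR and featureCounts. Settings, genome build and annotation are not given in the sources used here. The kit is labelled directional, but the ratio of the strand columns was 0.977 to 0.986, so a gene and its antisense partner cannot be told apart. For Wipi1 both strand columns together held 164% of the unstranded count, and for Atg4d 116%. The unstranded levels of these genes thus leave out reads that a strand column gives them. No pair of libraries was alike within sampling noise (chi-square 6.98 to 58.3 a gene).

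FGF21 libraries were tested against TBHP libraries with edgeR 4.0.16 (R 4.3.3): TMM scaling, filterByExpr (minimum count 10, minimum total 15), quasi-likelihood F test, and p adjusted by Benjamini-Hochberg over 11426 genes. The standard error was taken as the fold change on the log2 scale divided by the square root of F. Alternatives were DESeq2 1.42.0, limma-voom (limma 3.58.1), other filters, the per-sample files, a replicate block and dropping each library. In simulated counts of this comparison (11341 genes), edgeR found 174 of 200 genes given a log2 change of 1, with 13 false calls. Smaller changes, such as those of the 39 genes (-0.40 to 0.27), were not simulated, so this does not tell how often they would be found. A gene at 0 counts allows up to 3 counts, or 0.134 to 0.164 CPM, for counting error only.

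The genes, lists and tests were chosen with earlier results of these data known. Each library's value is given for genes with an unadjusted p under 0.05 or groups that do not overlap, for the lowest p of each step and for the LC3 family. Levels of different genes were not compared, as no transcript lengths were used.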

Additional observations from a re-analysis of the deposited data

How the results depend on the processing

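Of the 39 log2 fold changes, 26 kept their sign in every alternative, and 34 did in those other than dropping a library. With counts of strand column 4, Atg14 turned to 0.073, Atg4a to -0.017, Atg4b to -0.0077, Atg7 to -0.0053 and Stx17 to 0.025, and the conjugation median to -0.0065. For the 39 genes this column held 46.6% to 53.6% of the counts of both strand columns, so these values rest on fewer counts. No filter on low counts, strand column 4 and the replicate block each gave 4 of the 39 genes at an unadjusted p under 0.05, against 9.66%, 8.77% and 14% of all genes. DESeq2's size factors in edgeR, limma-voom, a filter of at least 60 counts and the unstranded per-sample counts each gave 3 at this threshold. These were Ambra1, higher with FGF21, and Atg10 and Vamp8, both lower, against 8.67% to 8.98% of all genes. Over all genes, the adjusted p called 4 genes by DESeq2's Wald test, 5 by edgeR with no filter (1438 at an unadjusted p under 0.05), and 0 by limma-voom (996), with unstranded per-sample counts (1082) and with strand column 4 (1049). Deviations from the group means had correlations of -0.16, 0.31 and 0.20 between same-numbered libraries. Between differently numbered libraries they were -0.33 to 0.23, so whether replicate numbers pair the libraries was not settled. The replicate block gave 2 calls and 1599 genes at an unadjusted p under 0.05. None of these called any of the 39 genes.

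Dropping each library in turn gave 0 to 8 of the 39 genes at an unadjusted p under 0.05, 0 to 1 called, 337 to 2732 of all genes at an unadjusted p under 0.05 and 0 to 867 called. The medians were -0.032 to 0.10 for initiation, 0.045 to 0.15 for the lipid kinase complex, 0.032 to 0.12 for the accessory genes and -0.0023 to 0.043 for the cargo receptors. Sign changes were seen for Atg13 (-0.080 to 0.12), Atg14 (-0.046 to 0.019), Uvrag (-0.015 to 0.12), Atg3 (-0.083 to 0.0085), Atg4a (-0.096 to 0.21), Atg4b (-0.025 to 0.063), Atg4c (-0.0033 to 0.23), Atg4d (-0.064 to 0.11), Atg7 (-0.0039 to 0.090), Gabarapl1 (-0.21 to 0.020), Gabarapl2 (-0.17 to 0.016) and Tecpr1 (-0.027 to 0.12). The causes were not tested. With 3 libraries a group, the intervals of single genes set what could be seen.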
